A study of Mus musculus with 6 samples.

Results

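Gdpd3, Pla2g7, Ces1d and Dgat2 encode 3 lipid hydrolases and 1 acyltransferase, and they are 4 of the 12393 genes that the array's single-gene probe sets name. They were selected on the measured difference in array signal between Bmal1-/- and wild-type pituitaries, as genes with large differences in both directions. Every probe set that the platform annotation pairs with 1 of these 4 genes alone was taken, which gave 7 of the 22626 probe sets on the array that are not controls. On the arrays labelled Bmal1-/-, Gdpd3 and Pla2g7 were higher and Ces1d and Dgat2 were lower than on the wild-type arrays. The genotypes did not overlap at any of the 7 probe sets, a separation that selection for large differences favours. Of all probe sets bright enough to be tested, 25.9% had no overlap between the genotypes. Because this contrast chose the genes, their differences are given as descriptions with no test.

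The study profiled whole pituitary glands of male C57BL/6J mice on 6 one-colour Affymetrix 3' expression arrays, 3 labelled Bmal1-/- (replicates 4 to 6) and 3 wild type (replicates 1 to 3). The label Bmal1-/- denotes homozygous loss of BMAL1, the transcription factor encoded by Arntl that drives the circadian clock, and the design text calls these mice clock-deficient. The labels do not say how the Bmal1 allele was made. All mice were 8 to 12 weeks old, lived in 12 hours of light and 12 hours of darkness, and were killed at zeitgeber time 12, when the lights go off. Each array carried RNA pooled from 3 glands of 1 genotype, which makes n = 3 pools of different animals per genotype throughout.

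Cells keep fatty acids esterified in phospholipids and triglycerides, and the balance of acyltransferases and hydrolases sets how much is stored, released or turned into signalling lipids. GDPD3 is a lysophospholipase D that makes lysophosphatidic acid, a ligand of G protein-coupled receptors, from lysophospholipids. PLA2G7 is the secreted phospholipase that inactivates platelet-activating factor and cleaves oxidised phospholipids, and macrophages are a known source of it. CES1D is a carboxylesterase of the endoplasmic reticulum that hydrolyses triglycerides and other esters and is best known from liver and adipose tissue. DGAT2 catalyses the last step of triglyceride synthesis, the joining of a fatty acyl group to diacylglycerol.

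The 6 arrays were close to each other, with Pearson's r across the tested probe sets of 0.970 to 0.976 for arrays of different genotypes and 0.980 to 0.986 for arrays of the same one. Anterior lobe markers were bright on every array, with summed intensities of 55789 to 58653 on the Bmal1-/- arrays and 61882 to 70325 on the wild-type arrays over 11 measured genes, with no overlap. Gh, Prl, Pomc and Cga made up most of these sums. Lhb (0.18), Crhr1 (0.12) and Trhr (0.12) had log2 differences above 0 that did not pass. Of all tested genes, 5.66% passed in either direction. Of the 11 anterior lobe markers, 0 rose and 3 fell: Gh, growth hormone (-0.27, SE 0.06, limma adjusted p = 0.0217), Cga, a hormone subunit (-0.31, SE 0.07, 0.0190), and Ghrhr, a receptor that drives growth hormone release (-0.66, SE 0.11, 0.00553). The calls of Gh and Cga ended in 8 and 7 of 17 alternatives, among them the omission of Bmal1-/- replicate 6 (limma adjusted p = 0.0978 and 0.0824), and under quantile normalization their differences were 0 and -0.04. The targeted gene did not read low: the Arntl probe set gave 112.1, 102 and 127.5 on Bmal1-/- replicates 4 to 6, against 39.6, 51.7 and 38.6 on wild-type replicates 1 to 3. That difference of 1.13 on the log2 scale (SE 0.14, limma adjusted p = 0.000653) was lost only without variance moderation (adjusted p = 0.0842) among the 17 alternatives run. Whether these probes lie inside or outside the removed sequence is not stated in the labels, so the genotypes below are those of the labels.

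Levels are MAS5 intensities on a linear scale, and differences are Bmal1-/- minus wild type means of log2(intensity + 16), a scale that understates the change of dim genes. Each SE, unless stated otherwise, is limma's moderated one, which draws the variance of a probe set toward that of others at its intensity. Of the 13576 probe sets tested, 752 passed a limma adjusted p under 0.05, which is 5.54%. Those higher on the Bmal1-/- arrays were 2.75% and those lower 2.78% of the tested probe sets. The count of 752 became 419, 332 and 407 without Bmal1-/- replicates 4, 5 and 6, and 419, 939 and 312 without wild-type replicates 1, 2 and 3. At 25.9% of the tested probe sets the 2 genotypes did not overlap. The labels give 1 µg of RNA for every array, and the mean with 2% trimmed at each end was 100.04 on all 6 arrays. A reading is thus relative to the other transcripts on its array. Fewer cells of a type, less RNA in each cell and a rise of other transcripts cannot be told apart here.

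**Figure D1:**
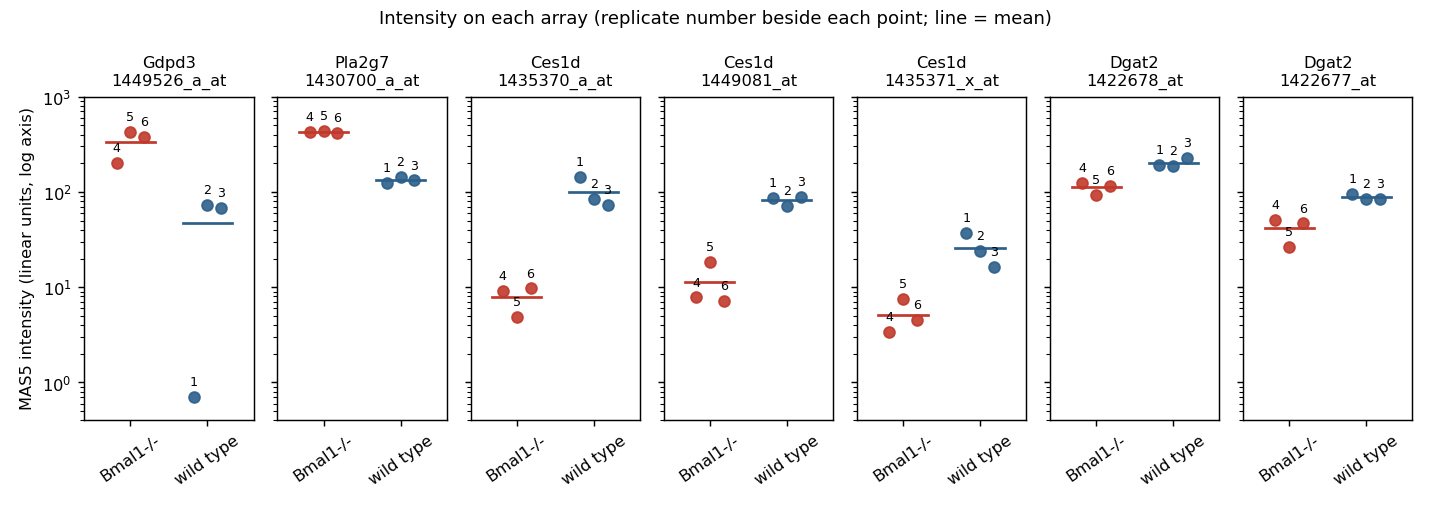
Intensity of each of the 7 probe sets on every array, on a log axis, with Bmal1-/- arrays (red) left of wild-type arrays (blue), replicate numbers beside the points and the genotype mean as a line. Gdpd3 and Pla2g7 lie higher and Ces1d and Dgat2 lower on the Bmal1-/- arrays, and Gdpd3 on wild-type replicate 1, at 0.7, lies far below the other wild-type arrays.

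On the log2(intensity + 16) scale Gdpd3 had the largest difference of the 4 genes and by far the widest spread, while the ratio of mean intensities was larger for Ces1d at 1435370_a_at (12.7, wild type over Bmal1-/-) than for Gdpd3 (7.06, Bmal1-/- over wild type). The single probe set of Gdpd3 read 202.9, 423.4 and 375 on Bmal1-/- replicates 4, 5 and 6, against 0.7, 72.7 and 68.4 on wild-type replicates 1, 2 and 3. The lowest Bmal1-/- array was 2.79 times the highest wild-type array. The means were 334 ± 116 in Bmal1-/- and 47.3 ± 40.4 in wild type (SD, n = 3 each), a difference of 2.74 (SE 0.50) that ranked 4 in size among the 13576 tested probe sets. On the log2 scale its own SDs were 0.54 in Bmal1-/- and 1.37 in wild type. The moderated SE is smaller than these would give alone.

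The size of the Gdpd3 difference moved with 1 array and with the pseudocount. Without wild-type replicate 1 it was 1.95, below that of Ces1d, with a pseudocount of 1 in place of 16 it was 3.96, and with 64 it was 1.87. On the log2 scale the 3 wild-type arrays spanned 2.41, which was the widest wild-type span of any tested probe set, where the median span was 0.28. The 3 Bmal1-/- arrays spanned 1.01, a span that 62 of the 13576 tested probe sets reached or passed, with a median of 0.24. Set apart from the genotype difference, the residual standard deviation of Gdpd3 was 1.04 and ranked 2 among all tested probe sets.

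Pla2g7, the platelet-activating factor hydrolase, was the steadiest of the 4 genes. It read 425.2, 438.4 and 412.2 on Bmal1-/- replicates 4 to 6, against 125.3, 144.2 and 132.2 on wild-type replicates 1 to 3. Each genotype formed a tight group with a wide gap between them, the lowest Bmal1-/- array standing at 2.86 times the highest wild-type array. The means were 425 ± 13.1 and 134 ± 9.56 (SD, n = 3 each), a ratio of 3.18 and a difference of 1.56 (SE 0.09) on the log2 scale. Its residual standard deviation, 0.07, ranked 12208 of 13576, so most tested probe sets varied more between arrays of a genotype. With any 1 array left out the difference stayed between 1.52 and 1.61.

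Of 13 macrophage markers, all measured and 10 bright enough to be tested, 0 rose and 1 fell. That was C1qa, a complement subunit (-0.48, SE 0.11, limma adjusted p = 0.0280), whose call ended with any 1 of the 6 arrays left out (adjusted p of 0.0504 without wild-type replicate 2 to 0.0891 without Bmal1-/- replicate 4). Their summed intensity was 536 to 627 on the Bmal1-/- arrays and 743 to 829 on the wild-type arrays, so the groups did not overlap. All 10 tested markers had differences below 0, the largest for Lyz2 (-0.50, SE 0.16), followed by C1qa, Csf1r and Cx3cr1 (-0.41, SE 0.18). The smallest were those of Adgre1 (-0.04) and Cd68 (-0.08), which were near the bottom of the tested range. The other C1q genes and the receptor gene Csf1r, all expressed by tissue macrophages, did not pass, with differences of -0.22 (C1qb), -0.32 (C1qc) and -0.43 (Csf1r). The part of such cells in the Pla2g7 signal was not tested.

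Promoter sequences from RefSeq (GRCm38.p6) are shown for Gdpd3 and Pla2g7, the 2 of the 4 genes matched in the promoter table used here, because the study concerns BMAL1, a factor that binds DNA. Each runs from 250 bases before to 50 bases after the transcription start. Gdpd3 lies on the plus strand at chr7:126766164-126766463 and Pla2g7 on the plus strand at chr17:43568201-43568500. Capitals mark matches, on either strand, to the E-box CACGTG that BMAL1 and its partners bind, the related E'-box CACGTT, the D-box TTATGTAA bound by DBP and its relatives, and the half-site AGGTCA bound by nuclear receptors.
Gdpd3: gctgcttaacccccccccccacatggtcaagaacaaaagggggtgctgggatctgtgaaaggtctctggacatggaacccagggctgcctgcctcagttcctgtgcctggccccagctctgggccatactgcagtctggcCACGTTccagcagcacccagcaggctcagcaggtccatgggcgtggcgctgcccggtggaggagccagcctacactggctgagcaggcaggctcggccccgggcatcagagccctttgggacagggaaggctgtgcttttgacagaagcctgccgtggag
Pla2g7: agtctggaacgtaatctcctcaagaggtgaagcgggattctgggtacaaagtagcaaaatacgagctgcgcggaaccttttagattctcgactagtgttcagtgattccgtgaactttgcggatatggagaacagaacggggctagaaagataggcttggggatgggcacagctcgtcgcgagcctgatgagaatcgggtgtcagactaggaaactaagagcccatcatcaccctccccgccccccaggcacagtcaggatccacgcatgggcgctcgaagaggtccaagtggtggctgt
The Gdpd3 window held 1 match, an E'-box on the plus strand whose first base is at -110 from the start, and the Pla2g7 window held 0 matches to the 4 motifs. Among all 32851 mouse promoters of that length, 7.15% held the E-box, 4.68% the E'-box, 0.938% the D-box and 16.3% the half-site. With 1 match in all, no motif overlapped another.

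Ces1d, the triglyceride hydrolase, was lower in Bmal1-/- at each of its 3 probe sets. The brightest, 1435370_a_at, read 9.1, 4.9 and 9.7 on Bmal1-/- replicates 4 to 6, against 144.9, 84 and 73.1 on wild-type replicates 1 to 3. The second, 1449081_at, read 7.8, 18.6 and 7.2 on the Bmal1-/- arrays and 85.8, 71.3 and 89.3 on the wild-type arrays. The third, 1435371_x_at, read 3.4, 7.5 and 4.5 on the Bmal1-/- arrays, against 37.1, 23.9 and 16.3 on the wild-type arrays, and was too dim to enter the test. All 9 wild-type readings were above the Bmal1-/- readings of their probe set, and 8 of the 9 Bmal1-/- readings lay below 17.3, the mean intensity of the dimmest tested probe set.

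In size, the log2 differences of the 3 Ces1d probe sets were -2.24 (SE 0.21), -1.87 (SE 0.18) and -0.96 (SE 0.22, from its own arrays alone). At 1435370_a_at the means were 7.90 ± 2.62 in Bmal1-/- and 101 ± 38.7 in wild type (SD, n = 3 each). Wild-type replicate 1 was the highest wild-type array at 1435370_a_at and 1435371_x_at but not at 1449081_at, where replicate 3 was. Because the Bmal1-/- readings are so low, the pseudocount sets the size of the difference: it was -3.50 with 1 and -1.17 with 64, in place of 16. Across the 6 arrays the 3 probe sets had pairwise Pearson's r of 0.911 to 0.954, values that the genotype gap they share dominates.

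Ces1d sits in a cluster of closely related Ces1 genes, and whether its probes also bind their transcripts was not tested. The other 4 Ces1 genes with a probe set of their own (Ces1c, Ces1e, Ces1f and Ces1g) read between 0.2 and 6.5 on the 6 arrays. Over all 8 other carboxylesterase genes measured, the highest reading was 15.8, for Ces2g. None of the 8 had a mean over the 6 arrays high enough to be tested.

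Fat and liver RNA were also looked for, as Ces1d and Dgat2 are abundant there. Adipoq and Lep, hormones of adipocytes, read at most 0.4 and 1.5 on the Bmal1-/- arrays and at most 4.7 and 2.9 on the wild-type arrays. Of 8 measured adipocyte markers 5 stayed under 20 on every array, and the summed intensity was 222 to 278 in Bmal1-/- and 245 to 296 in wild type, ranges that overlap. Thrsp, a lipogenic nuclear protein, made up most of that sum. Fabp4, at 12.9 to 37.3, and Lipe, at 16.3 to 27.3, also read above 20 on some arrays. Of 9 measured hepatocyte markers 7 stayed under 20 on every array, with Fgb, a fibrinogen chain, at 0.5 or less throughout. The others were Ttr, at 29.5 to 50.6, and Apoa2, at 9.6 to 30.7, and neither passed the test. The hepatocyte sums were 60.3 to 92.6 in Bmal1-/- and 86.1 to 105.8 in wild type, with overlap.

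Dgat2, the triglyceride-forming acyltransferase, was lower in Bmal1-/- at both of its probe sets, by less than the other 3 genes differed. The brighter one, 1422678_at, read 124.9, 93.6 and 115.4 on Bmal1-/- replicates 4 to 6, against 193.4, 187.7 and 228 on wild-type replicates 1 to 3. The other, 1422677_at, read 50.9, 26.4 and 46.7 on the Bmal1-/- arrays and 96.2, 85 and 84.6 on the wild-type arrays. At both probe sets Bmal1-/- replicate 5 was the lowest array of all and replicate 4 the highest of its genotype.

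The means of Dgat2 at 1422678_at were 111 ± 16.05 in Bmal1-/- and 203 ± 21.8 in wild type (SD, n = 3 each). Its log2 difference was -0.79 (SE 0.12), and that of 1422677_at was -0.89 (SE 0.17), so that the 2 probe sets differed by less than either standard error. Among the 13576 tested probe sets these sizes ranked 184 and 121, well behind the 3 other genes, whose brightest probe sets ranked 4 (Gdpd3), 20 (Pla2g7) and 6 (Ces1d).

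**Figure D2:**
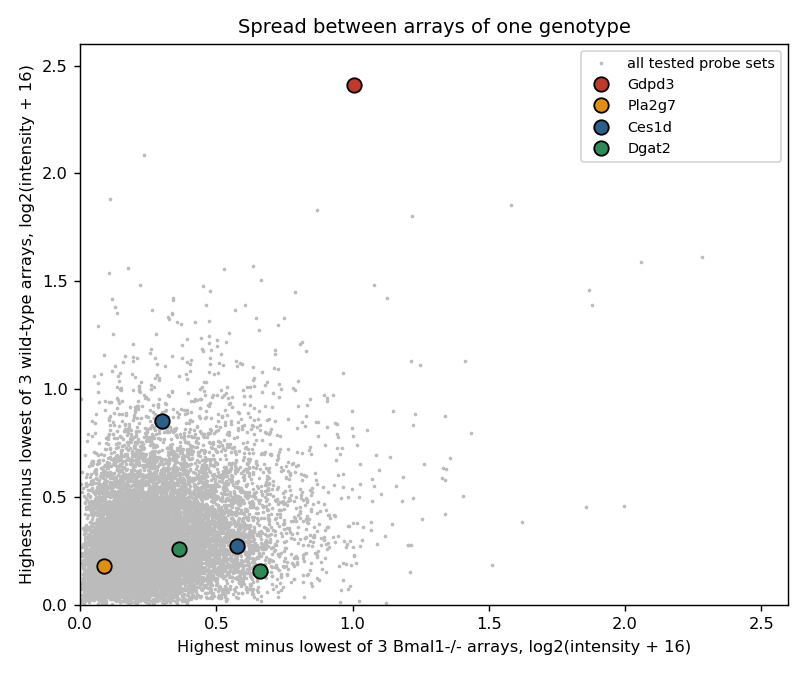
Span of the 3 Bmal1-/- arrays (x axis) and of the 3 wild-type arrays (y axis), as highest minus lowest log2(intensity + 16), for all 13576 tested probe sets (grey) and the 6 tested probe sets of the 4 genes (coloured). Gdpd3 lies at the top, at 2.41 on the wild-type axis and 1.01 on the Bmal1-/- axis, while Pla2g7 lies near the origin.

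The 4 genes did not share an order of arrays within a genotype. Bmal1-/- replicate 5 was the highest of its genotype for Gdpd3 and Pla2g7, and the lowest for Dgat2 at both probe sets and for Ces1d at 1435370_a_at. At the 2 other Ces1d probe sets that array was the highest of its genotype. Wild-type replicate 1 was the lowest wild-type array for Gdpd3 and Pla2g7 and the highest for Ces1d at 1435370_a_at and Dgat2 at 1422677_at.

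Gdpd3 and Dgat2 lie on chromosome 7, the chromosome of Arntl itself, and both start within 20 Mb of it, on opposite sides. Ces1d lies on chromosome 8 and Pla2g7 on chromosome 17. Of 186 tested genes within 20 Mb of Arntl, 21 passed the test (11.3%). Gdpd3 and Dgat2 are both among the 21 and were chosen for their difference in this contrast, so they raise that share. The share was 25 of 391 on the rest of chromosome 7 (6.39%) and 408 of 7447 on other chromosomes (5.48%). Of those 21 genes 8 (4.3% of the 186) were higher and 13 (6.99%) lower in Bmal1-/-. The array genotypes did not overlap at 26.9% of the 186 genes. Sequence carried along with a targeted allele and an effect of the missing protein cannot be told apart in this design.

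Most genes beside Gdpd3 and Dgat2 did not pass. The same holds within 20 Mb of Arntl, where 11.3% passed, and over all tested genes, where 5.66% passed. Among the 5 nearest measured genes on each side of Gdpd3, the sulfotransferase gene Sult1a1 was the 1 of 10 that passed, and it was lower in Bmal1-/-. Sult1a1 read 34.3, 43.6 and 47.8 on the Bmal1-/- arrays, against 80.4, 101.7 and 112.9 on the wild-type arrays, a difference of -0.98 (SE 0.15, limma adjusted p = 0.00319). The nearest measured genes on its 2 sides, Bola2 (0.21, SE 0.13) and Ypel3 (0.27, SE 0.08), did not pass, with adjusted p of 0.356 and 0.0841 in limma.

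Around Dgat2, Uvrag, which acts in autophagy and endosome transport, was the 1 of 10 measured neighbours that passed. Uvrag read 121.4, 124.8 and 122 on the Bmal1-/- arrays, against 187.4, 183.4 and 196.5 on the wild-type arrays, a difference of -0.56 (SE 0.10, limma adjusted p = 0.00564). It is the nearest measured gene on the lower-coordinate side of Dgat2 and, like Dgat2, was lower in Bmal1-/- with no overlap between genotypes. On the other side, Map6 (-0.22, SE 0.24) and the collagen chaperone gene Serpinh1 (0.07, SE 0.09) did not pass. Gdpd5, which encodes a glycerophosphodiesterase of the same family as GDPD3, is the third measured neighbour on that side, at 0.47 (SE 0.21, limma adjusted p = 0.219).

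**Figure D3:**
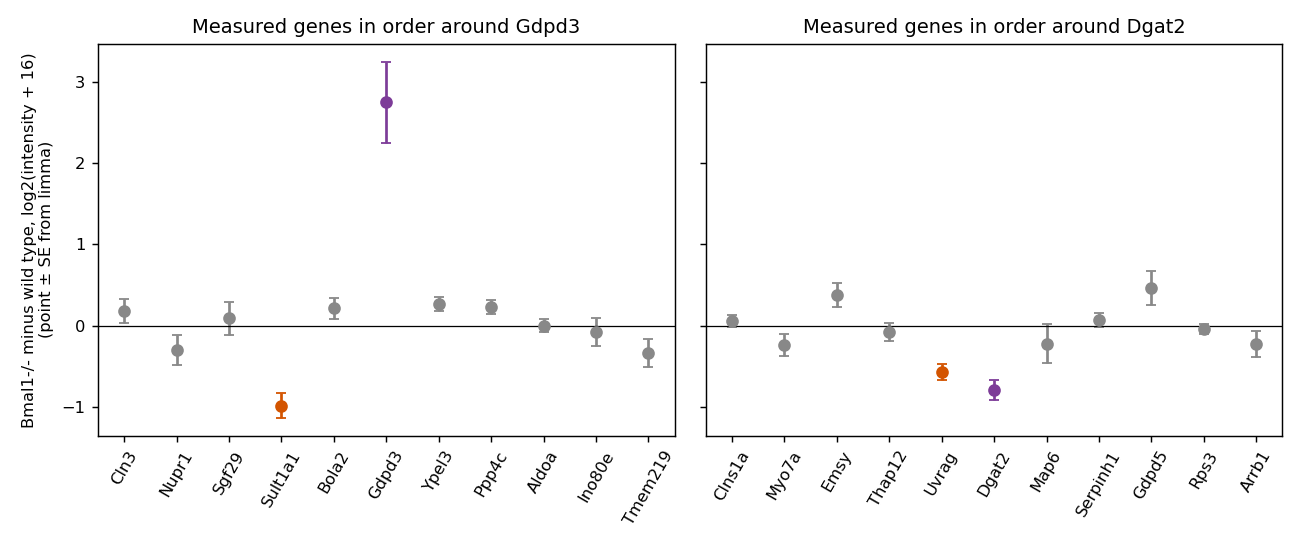
Log2 difference, Bmal1-/- minus wild type, with its SE, for the 5 nearest measured genes on each side of Gdpd3 (left) and Dgat2 (right), in chromosome order. Purple marks Gdpd3 (2.74) and Dgat2 (-0.79), orange the neighbours with limma adjusted p under 0.05, which are Sult1a1 (-0.98) and Uvrag (-0.56), and grey the others.

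The enzymes that work beside these 4 were then taken from 5 lists of lipid genes. Leaving out the 4 genes themselves, 154 genes were listed, 110 were measured, 39 of those were too dim to test, and 71 were tested. Of the 71, 3 rose and 3 fell, which is 8.45%, where 5.66% of all 8033 tested genes passed (3% higher and 2.66% lower in Bmal1-/-). The median difference of the 71 genes was -0.05, against 0.00 over all tested genes. The count of 6 became 3 without Bmal1-/- replicate 5 and 3 without wild-type replicate 3.

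In the list of glycerophosphodiesterases and of lysophosphatidic acid enzymes and receptors, the product side of GDPD3, 1 of 14 tested genes passed and the median was -0.03. Plpp3, a phosphatase that breaks down lysophosphatidic acid, read 365.9, 306 and 330.8 on the Bmal1-/- arrays, against 427.5, 462.5 and 465.7 on the wild-type arrays. It fell by 0.42 on the log2 scale (SE 0.09, limma adjusted p = 0.0186), but its second probe set differed by -0.06 (SE 0.14) with overlapping genotypes. The call ended without Bmal1-/- replicate 5 (adjusted p = 0.0843) or 6 (0.0574), without wild-type replicate 3 (0.0752), with both probe sets averaged (0.145), and without the intensity trend (0.0732). Of the receptors measured, Lpar1 was the one bright enough to be tested, at 19.4 in Bmal1-/- and 29.9 in wild type on average, and did not pass (-0.36, SE 0.17). Gdpd1, a relative of Gdpd3 with the same enzyme activity, had a difference of 0.18 (SE 0.16).

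Among phospholipases A2 and enzymes of platelet-activating factor, 0 of 13 tested genes passed limma's adjusted threshold and 2 had an unadjusted p under 0.05, with a list median of -0.13. Those 2 were Pla2g12a, a secreted phospholipase (-0.36, SE 0.12, limma adjusted p = 0.0896), and Pla2g6, the calcium-independent phospholipase (0.35, SE 0.13, adjusted p = 0.151). Neither passed in any of 17 alternatives, where their lowest adjusted p values in limma were 0.0638 and 0.0875. Ptafr, the receptor for platelet-activating factor, read between 0.2 and 12.6 on the 6 arrays and was not tested. Pafah2, the intracellular enzyme closest in sequence to PLA2G7, averaged 65.9 in Bmal1-/- and 75.5 in wild type (-0.16, SE 0.13), and Lpcat1, which can make platelet-activating factor, had a difference of 0.01 (SE 0.09).

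In the list of carboxylesterases and related esterases, 1 of 5 tested genes passed and the median was -0.27. Acot7, which cleaves acyl-CoA to free fatty acid and is abundant in neurons, read 428.4, 363.8 and 383.9 on the Bmal1-/- arrays, against 513.7, 485.5 and 509.7 on the wild-type arrays. It fell by 0.35 (SE 0.08, limma adjusted p = 0.0331), a call that ended in 7 of 17 alternatives, among them the omission of Bmal1-/- replicate 5 (0.134) or 6 (0.0999) and of wild-type replicate 1 (0.0939) or 3 (0.104). Acot1, a related thioesterase, had the opposite sign at 0.65 (SE 0.18) and did not pass (limma adjusted p = 0.0545). Acot1 did pass in 5 of 16 alternatives, with the lowest adjusted p of 0.0297 without Bmal1-/- replicate 4.

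Of the genes for triglyceride and glycerolipid synthesis, 1 of 18 tested passed and the median was -0.10. Mboat1, a lysophospholipid acyltransferase, read 62.3, 66.7 and 50.2 on the Bmal1-/- arrays, against 33.9, 29.2 and 34.9 on the wild-type arrays. It rose by 0.63 (SE 0.14, limma adjusted p = 0.0252), a call that ended without Bmal1-/- replicate 4 (0.0832) or 5 (0.107), without wild-type replicate 1 (0.0562) or 3 (0.0609), and with no filter on low values (0.0729). Dgat1, the other enzyme that makes triglyceride from diacylglycerol, averaged 72.9 in Bmal1-/- and 59.3 in wild type, a difference of 0.25 (SE 0.16) that did not pass (limma adjusted p = 0.414). Mogat1 and Mogat2, of the same family as DGAT2, were too dim to test. Gpam and the lipin genes Lpin1 and Lpin2, which act upstream of DGAT2, had differences of -0.15, -0.16 and -0.13, none of which passed. Those are the brightest probe sets, and a second Lpin1 probe set did pass (-0.41, SE 0.10, limma adjusted p = 0.0339).

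Triglyceride hydrolysis and lipid droplet genes gave 2 rises and 1 fall among 21 tested, with a median of 0.01. Fabp5, a fatty acid-binding protein, read 479.2, 466.8 and 529.2 on the Bmal1-/- arrays, against 263.7, 254.9 and 268.5 on the wild-type arrays. It rose by 0.87 (SE 0.08, limma adjusted p = 0.000101), its second probe set rose by 0.66 (SE 0.11), and the call held in 17 of 17 alternatives. Mgll, which encodes the lipase of monoacylglycerols, endocannabinoids among them, read 116.8, 107.4 and 128.3 on the Bmal1-/- arrays, against 171.3, 186.8 and 185.1 on the wild-type arrays.

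Mgll fell by 0.56 (SE 0.10, limma adjusted p = 0.00934), and its 2 other tested probe sets had differences of -0.63 (SE 0.13) and -0.72 (SE 0.16), both past the threshold. The Mgll call ended only without variance moderation (adjusted p = 0.0978) among the 17 alternatives. Lpl, the lipoprotein lipase that frees fatty acids from circulating triglyceride, read 309, 322.5 and 313.6 on the Bmal1-/- arrays and 243.1, 193.7 and 208.6 on the wild-type arrays. It rose by 0.52 (SE 0.10, limma adjusted p = 0.00980), while its dimmer probe set had a difference of 0.25 (SE 0.17) and overlapping genotypes, and the call ended with both averaged (adjusted p = 0.0692). The main triglyceride and diglyceride lipases, Pnpla2 (-0.05, SE 0.11) and Lipe (-0.07, SE 0.16), did not pass.

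**Figure D4:**
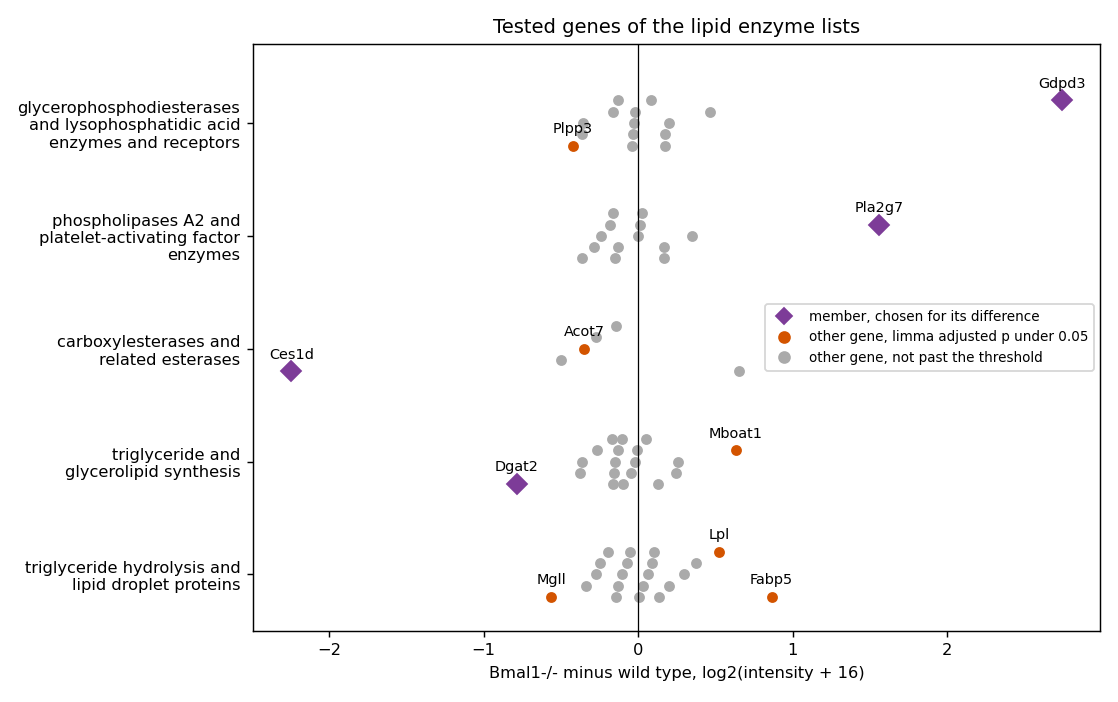
Log2 difference, Bmal1-/- minus wild type, of every tested gene in the 5 lists, 1 point per gene, with the 4 chosen genes as purple diamonds, the 6 other genes past the limma threshold in orange and the rest in grey. Gdpd3 (2.74), Pla2g7 (1.56), Ces1d (-2.24) and Dgat2 (-0.79) lie outside the range of the other genes of their lists, and Fabp5 (0.87) is the highest of the others.

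Across the 6 arrays, the genes whose log2 levels were most like Gdpd3 were Cgnl1, the transcription factor gene Gtf2i and the growth factor receptor gene Fgfr1, with Pearson's r of 0.997, 0.990 and 0.990. Cgnl1, which encodes a junction protein, read 145.7, 171.8 and 160.8 on the Bmal1-/- arrays and 73.2, 109.2 and 109.5 on the wild-type arrays, with wild-type replicate 1 lowest as for Gdpd3. Tomm34, Rogdi and the phosphofructokinase gene Pfkp were nearest to Pla2g7 (r of 0.997, 0.996 and 0.996). Mr1, an antigen-presenting molecule for metabolites, Grn, the progranulin gene, and Metrnl were nearest to Ces1d (0.996, 0.994 and 0.992). For Dgat2 they were the G protein regulator gene Rgs9, the respiratory chain gene Uqcrfs1 and Mllt11 (0.993, 0.992 and 0.990). With 3 arrays per genotype such values rest mostly on the genotype gap. They are the highest of the 8033 tested genes, each taken at its probe set with the highest r, so they are given as a description.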

How the data were processed

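RNA of 6 pools of pituitary glands was measured on 6 arrays. The deposited table holds 1 linear intensity per probe set and array, made with MAS5 per the submitters' processing notes, with version and detection calls not given in the sources used here. The scaling target is not stated either, but the mean with 2% trimmed at each end was 100.04 on all 6 arrays. The background step of MAS5 uses mismatch probes and leaves dim values noisy. The number of arrays limits the precision. No 2 arrays shared more than 0.302% identical values among tested probe sets.

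Intensities were transformed as log2(intensity + 16). After 64 control probe sets were left out, the 13576 brightest (60%, by their mean on the 6 arrays) entered limma 3.58.1 in R 4.3.3, using lmFit, then eBayes whose prior variance follows intensity, with two-sided p-values adjusted by Benjamini-Hochberg. The procedure was tested on simulated data, drawn as independent normal values with variances from its own fit. Such data hold no array effects and no outlying array, so the procedure was not tested against those. The annotation pairs 20380 probe sets with 1 gene and 691 with several, which were not used for naming. Gene IDs matched the RefSeq table (GRCm38.p6) for 99.9%. Its positions gave chromosomes, the order of neighbouring genes and the window of 20 Mb around Arntl, and the printed promoter coordinates come from the RefSeq sequences. The build behind the array is not named. A gene with several tested probe sets was read from the brightest. In the search by Pearson's r, it was read from its probe set with the highest r.

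The 4 genes and the lists were chosen with earlier results of these data known. Named genes were those 4, Arntl, the list genes past the threshold (or the 2 with the smallest p), the 3 nearest by Pearson's r and the 5 nearest measured genes on each side. A few list members are also named for their role. Alternatives were quantile normalization, equal medians, pseudocounts of 1 and 64, no filter or the top 40%, other variance models, array weights, averaged probe sets and each array left out.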

Additional observations from a re-analysis of the deposited data

How the results depend on the processing

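The count of changed probe sets, 752 as reported, was 330 with no filter on low values, 407 without the intensity trend and 32 without variance moderation, and 312 to 939 with 1 array left out. The count of changed genes in the lipid lists, 6 as reported, was 1 without moderation (Fabp5) and 3 to 7 with 1 array left out. With a pseudocount of 1 the differences were 3.96 for Gdpd3, 1.66 for Pla2g7 and -3.50 for Ces1d, and with 64 they were 1.31 for Pla2g7, -1.17 for Ces1d and -0.61 for Dgat2. With its 3 probe sets averaged Ces1d differed by -1.69. Leaving out 1 array gave 1.95 to 3.16 for Gdpd3, 1.52 to 1.61 for Pla2g7, -2.41 to -1.99 for Ces1d and -0.86 to -0.68 for Dgat2. The 4 genes and the 6 called list genes kept their direction in every alternative run. A larger pseudocount shrinks the difference of dim genes by construction, and no filter adds tests of dim probe sets. Fits without an array have fewer samples, and the count of changed probe sets was 939 without wild-type replicate 2 and 312 to 419 without any other array. Apart from the effect of the pseudocount, the cause of these changes was not tested. No paired analysis was possible because the replicate numbers, 4 to 6 in Bmal1-/- and 1 to 3 in wild type, are not shared.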

Other observations

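Markers of folliculostellate and stem cells of the gland were listed beside the lipid genes. Of 7 tested, Aldh1a2, which makes retinoic acid, rose by 0.58 (SE 0.10, limma adjusted p = 0.00836), while Cyp2f2, a cytochrome P450, fell by 0.81 (SE 0.10) and Lcn2, a lipocalin, fell by 1.53 (SE 0.16). Cyp2f2 read 522.1, 668.2 and 665.9 on the Bmal1-/- arrays, against 1159.7, 1113.2 and 1005.4 on the wild-type arrays. Sox2, a stem cell factor, had a difference of 0.05 (SE 0.11). The summed intensity of the 9 measured markers was 1473 to 1592 in Bmal1-/- and 1971 to 2411 in wild type, with no overlap. Cyp2f2 and Lcn2 made that gap, since the sum of the other 7 was 781 to 844 in Bmal1-/- and 602 to 761 in wild type. Aldh1a2 was the largest part of that smaller sum on every array. It read 501.4, 472.6 and 490.8 on the Bmal1-/- arrays and 384.6, 289 and 300.1 on the wild-type arrays. The rest had no common direction: Sox9 (0.19) and Fxyd1 (0.12) lay above 0 and Aldh1a1 (-0.12) below, and none of these passed. S100b and Gfra2 were too dim to test. Among 8 tested endothelial markers Plvap, a protein of fenestrated capillaries, rose by 0.40 (SE 0.09, limma adjusted p = 0.0287), a call that ended in 7 of 17 alternatives, among them without Bmal1-/- replicate 4 (0.103) or 5 (0.103) and without wild-type replicate 1 (0.0869) or 3 (0.0894). The endothelial sums were 719 to 805 in Bmal1-/- and 604 to 731 in wild type, with overlap. Of 8 measured posterior and intermediate lobe markers, 2 were tested and 0 passed: Oxt (-0.57, SE 0.16, limma adjusted p = 0.0565) and Drd2 (-0.02, SE 0.09). The sums of the 8 were 311 to 354 in Bmal1-/- and 365 to 472 in wild type, with no overlap. Of 7 measured blood cell markers, 2 were tested and 0 passed, with sums of 118 to 171 and 119 to 211. Whether any of these cell types hold the transcripts of Gdpd3, Pla2g7, Ces1d or Dgat2 was not tested.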
